A study of Rattus norvegicus with 4 samples.

Results

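The genes described here are 44 members of the nuclear hormone receptor superfamily, named by gene symbol. They were chosen with earlier results of these data known. Their symbols were looked up among the 17419 rows of expression values from the prefrontal cortex of neonatal rats. Of the 44, 40 had a row in at least 1 library, 34 had a row in all 4 libraries, and 28 had a mean level of at least 1 FPKM over the libraries and are called tested receptors below (FPKM, fragments scaled to the kilobases of the transcript and the depth of the library, is a level that can be compared between genes). The tissue came from rats of the strain labelled Wistar, given in the methods as Wistar Furth, whose mothers received bisphenol A (BPA, a plastics monomer that acts as an endocrine disruptor) by gavage at 5000 µg/kg maternal body weight daily from gestational day 1 until they gave birth, or vehicle alone. The pups were labelled postnatal day 1, and 1 library was made for each sex and treatment. Where 4 levels of a gene follow each other, they are those of the males (control, then BPA) and then those of the females (control, then BPA). According to the methods, 3 pups per sex and treatment came from 6 litters. Neither the methods nor the labels state whether a library pooled them, or whether the male and female library of a treatment shared litters. A comparison of BPA with control within a sex therefore set 1 library against 1, and only the comparison over both sexes, in which the male and female library of a treatment served as its 2 replicates, carried a test.

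Nuclear receptors are transcription factors that bind small lipophilic molecules and then switch target genes on or off. Steroid receptors wait with heat shock chaperones and bind DNA as pairs of the same receptor, whereas the thyroid hormone, retinoic acid, liver X, vitamin D and peroxisome proliferator-activated receptors pair with a retinoid X receptor (RXR). The orphan members have no accepted ligand or work without one. In the developing forebrain, thyroid hormone, glucocorticoids and retinoic acid time the maturation of neurons, and the retinoic acid receptor beta and the retinoid X receptor gamma are best known from the striatum.

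The depth, recovered from the steps in which the FPKM of scarce transcripts moved, was between 8948000 and 9252000 estimated fragments per library. The libraries were thus about equally deep, and the intervals given below cover counting error alone. Genes named as markers of cortical projection neurons were present, with a summed level of 582 to 632 FPKM over 9 genes. Markers of other tissue were present too and differed between the treatments. The summed level of 13 meningeal markers was 498 FPKM (males) and 656 FPKM (females) with vehicle, against 229 FPKM (males) and 158 FPKM (females) with BPA, although the methods describe removal of the meninges. The summed level of 12 markers of striatal projection neurons was 113 FPKM in both control libraries, against 146 in BPA male and 161 in BPA female. None of these markers was at the lowest value of the files in any library. In bulk tissue, fewer cells of a type and less RNA per cell cannot be told apart.

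Between BPA and control, 1 receptor stood apart from all others. Rxrg, which encodes the retinoid X receptor gamma, was 4.02 times as high in BPA male as in control male and 3.27 times as high in BPA female as in control female. Rarb, which encodes the retinoic acid receptor beta, had ratios of 1.69 and 1.38. The other 26 tested receptors lay within an absolute log2 ratio of 0.5 in both sexes, on the log2(FPKM + 0.5) scale used for all log2 ratios below unless stated. By limma (Benjamini-Hochberg adjusted p under 0.05 over all 13163 genes with a mean of at least 1 FPKM), Rxrg was the only one of the 28 tested receptors called, where 0.562% of all tested genes were called. An unadjusted p under 0.05 was reached by 5 receptors (Rxrg, Rarb, Nr1h2, Nr1i3 and Nr2f2) and by 17.3% of all tested genes, which is the share to set beside every count of unadjusted p-values below. These p-values measure only the spread between the male and female library of a treatment, which may be technical and may leave out the spread between litters.

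The coding strand of the 250 bases before the annotated starts of these genes is shown because both genes were higher in both BPA libraries. The sequences are from RefSeq, assembly GRCr8, and capitals mark the hexamer AGGTCA, to which receptors of the retinoid and thyroid type bind, and its variants GGGTCA and AGTTCA as well as GGTTCA, on either strand.
Rxrg, chr13:82276237-82276486, plus strand: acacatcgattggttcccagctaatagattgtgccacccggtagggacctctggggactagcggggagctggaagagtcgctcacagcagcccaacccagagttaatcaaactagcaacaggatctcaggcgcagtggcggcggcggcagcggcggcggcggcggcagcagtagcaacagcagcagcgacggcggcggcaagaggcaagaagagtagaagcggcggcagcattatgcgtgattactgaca
Rarb, chr15:11336142-11336391, plus strand: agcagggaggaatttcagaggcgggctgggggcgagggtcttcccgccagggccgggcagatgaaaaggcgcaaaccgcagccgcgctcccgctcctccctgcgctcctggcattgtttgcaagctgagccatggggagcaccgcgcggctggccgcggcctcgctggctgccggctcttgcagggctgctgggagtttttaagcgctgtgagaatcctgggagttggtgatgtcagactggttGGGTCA
No such hexamer was in the window of Rxrg, and 1 was in that of Rarb. A direct repeat of these hexamers with 5 bases between them, the arrangement of the textbook retinoic acid response element, began at base 25 of Rarb, counted from 1 at the annotated start.
Rarb direct repeat, chr15:11336416-11336432, plus strand: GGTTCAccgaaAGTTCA
In windows from 250 bases before to 50 bases after the start, searched on both strands, this repeat was in 128 of 33469 windows of all genes (0.382%) and in 1 of the 48 windows listed for 39 of the receptors. The same repeat with 4 bases between the hexamers, the arrangement bound by thyroid hormone receptors, was in 0 receptor windows and 0.0807% of all windows. The palindrome bound by estrogen receptors (GGTCA followed after 3 bases by TGACC) was in 0 receptor windows and 0.0269% of all windows. The hexamer AGGTCA alone was in 10.4% of the receptor windows (those of Esrrg, Nr0b1, Nr1d2, Nr5a2 and Rarg) and in 16.2% of all windows. These matches are descriptions of letters in a window.

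Rxrg (NCBI Gene ID 83574) had 6.11 FPKM (95% exact Poisson interval of the counting error, 5.01 to 7.36) with vehicle and 24.56 FPKM (22.3 to 27.0) with BPA in males. In females it had 8.0 FPKM (6.71 to 9.44) with vehicle and 26.17 FPKM (23.8 to 28.7) with BPA. The BPA libraries lay above both control libraries, and the intervals of the treatments did not overlap. These levels rested on 109, 435, 138 and 454 estimated fragments. The log2 ratio of BPA to control was 1.92 in males and 1.65 in females. Without the added 0.5, the exact intervals of the log2 ratio were 1.70 to 2.32 and 1.43 to 2.0, so the sexes overlapped. The limma log2 ratio over both sexes was 1.79 (SE 0.135, adjusted p = 0.0253, higher in 2 of 2 BPA libraries). The control libraries themselves differed by a log2 ratio of 0.36, female over male, and the BPA libraries by 0.09. With a library left out, its treatment holds 1 library, which is assumed to vary like the 2 of the other treatment, and 1 residual degree of freedom remains. Under this limit, the call was lost by limma without control male (1.60, adjusted p = 0.0516), without BPA male (1.83, adjusted p = 0.121) and without BPA female (1.74, adjusted p = 0.168), and remained without control female (1.97, adjusted p = 0.0294). It was also lost when no filter on low values was applied (adjusted p = 0.119 by limma over 16182 rows).

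Rarb (Gene ID 24706) had 6.16 FPKM (5.29 to 7.10) with vehicle and 10.43 FPKM (9.29 to 11.7) with BPA in males, and 7.02 FPKM (6.08 to 8.05) with vehicle and 9.68 FPKM (8.57 to 10.9) with BPA in females. Again both BPA libraries lay above both control libraries, and within a sex the intervals did not overlap. The log2 ratio was 0.71 in males and 0.44 in females, of which only the former reached 0.5. The limma log2 ratio was 0.58 (SE 0.117), which did not pass the test (adjusted p = 0.107). When the assembled transcripts without a gene symbol were left out of the table, an alternative chosen after the data were seen, limma gave Rarb an adjusted p of 0.0308, where 4.49% of the 10629 genes were called.

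The 4 remaining retinoid receptors did not follow. Rxrb, the retinoid X receptor beta, had 22.12, 20.61, 19.96 and 21.50 FPKM. Rxra, the alpha form, had 3.46, 3.32, 3.08 and 2.81 FPKM. Every interval of the counting error of Rxrb overlapped the others, and the same held for Rxra. Rara, the retinoic acid receptor alpha, had 9.77, 10.30, 10.78 and 10.50 FPKM, and Rarg, the gamma form, 2.31, 2.31, 1.98 and 2.29 FPKM. For these 4 genes the limma log2 ratios lay between -0.08 and 0.08. The makeup of the RXR group thus differed between the treatments. Rxrg made up 19.3% (males) and 25.8% (females) of the summed FPKM of the 3 RXR genes with vehicle, against 50.6% (males) and 51.8% (females) with BPA. Rxrb held the largest share in the control libraries (69.8 and 64.3%), while Rxrg held the largest share in the BPA libraries. The summed level of the RXR genes was 31.7 and 31.0 FPKM in the control libraries and 48.5 and 50.5 FPKM in the BPA libraries. Among the retinoic acid receptors, Rarb made up 33.8 and 35.5% of the sum in the control libraries and 45.3 and 43.1% in the BPA libraries, with no test of these shares.

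**Figure D1:**
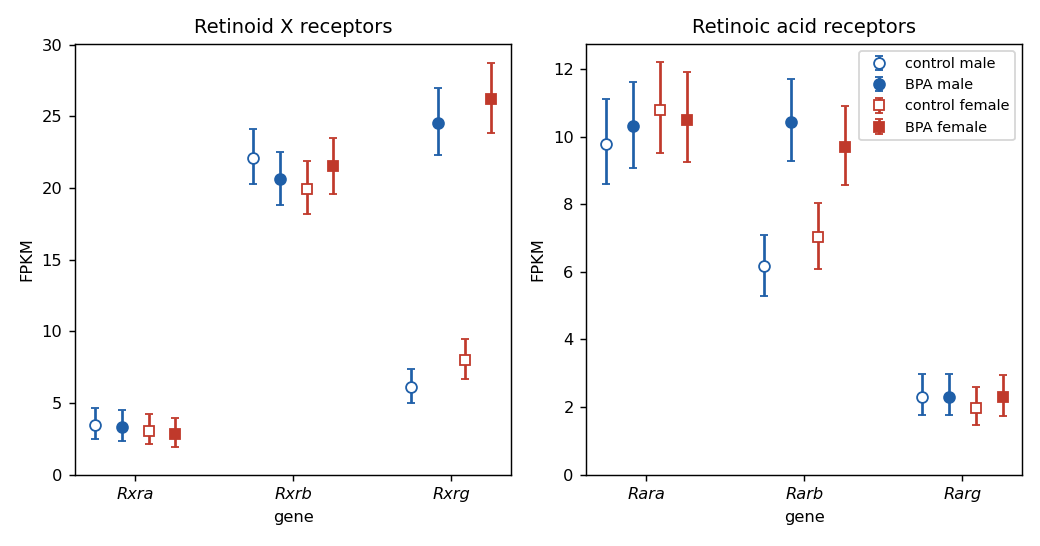
FPKM of the 3 retinoid X receptor genes (left) and the 3 retinoic acid receptor genes (right) on linear axes, 1 point per library, with bars for the exact 95% Poisson interval of the estimated fragments. Rxrg sits at 6.11 and 8.0 FPKM in the control libraries and at 24.56 and 26.17 in the BPA libraries, Rarb shows a smaller gap, and the points of the other 4 genes overlap.

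The steroid receptors were scarce. Nr3c1, the glucocorticoid receptor, had 4.77, 3.93, 5.14 and 4.23 FPKM. Nr3c2, the mineralocorticoid receptor, had 2.68, 2.07, 3.27 and 2.17 FPKM. Both corticosteroid receptors were lower in both BPA libraries than in both control libraries. Their log2 ratios were -0.25 in each sex for Nr3c1, and -0.31 in males and -0.50 in females for Nr3c2, just short of the 0.5 that counted as past the fold. By limma neither passed (adjusted p = 0.404 for Nr3c1 and 0.356 for Nr3c2). Pgr, the progesterone receptor, had 1.63, 1.72, 1.62 and 2.31 FPKM, so that 1 library, BPA female, stood above the other three. Esr1, the estrogen receptor alpha, remained under the minimum with 0.64, 0.48, 0.55 and 0.82 FPKM, which rested on 9 to 15 estimated fragments. The exact intervals of its log2 ratio without the added 0.5 were -1.83 to 0.97 for the male pair and -0.67 to 1.89 for the female pair, so a difference of the size seen for Rarb was not detectable at this depth. Esr2, the estrogen receptor beta, was listed in the female libraries alone, at 0.01 FPKM in control female, which stands in place of 0, and 0.04 in BPA female.

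The estrogen-related receptors, orphans that bind BPA in the case of the gamma form but no estrogen, did not move together. Esrra, the alpha form and a regulator of mitochondrial genes, had 7.14, 9.05, 9.65 and 9.50 FPKM, so that control male was the low library. Esrrg, the gamma form, had 3.63, 2.60, 3.15 and 3.38 FPKM, and here BPA male was low. The levels of the treatments overlapped for both genes, and their limma log2 ratios were 0.15 and -0.16 (adjusted p = 0.652 and 0.706). Esrrb was listed in the male libraries alone, at 0.17 FPKM in control male and 0.01 in BPA male.

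Thra, the thyroid hormone receptor alpha, was the most abundant receptor by far, with 363.67, 370.43, 373.32 and 363.61 FPKM. With 7441 to 7736 estimated fragments behind each value, the exact interval of its log2 ratio was narrow, -0.02 to 0.07 for the male pair and -0.08 to 0.01 for the female pair. Thrb, the beta form, had 3.01, 2.59, 2.85 and 2.78 FPKM and made up less than 1% of the summed level of the thyroid hormone receptors in every library. Thra overlaps Nr1d1 and Med24 in the RefSeq annotation, and the strand of the libraries is not stated, so reads of the shared bases cannot be assigned with certainty.

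Of the receptors for lipids, bile acids, vitamin D and foreign compounds, 3 of 9 were tested. Nr1h2, the liver X receptor beta that senses oxysterols, had 18.93, 13.90, 16.66 and 14.70 FPKM. Nr1i3, the constitutive androstane receptor, had 9.37, 7.37, 10.03 and 7.79 FPKM. Both were lower in both BPA libraries than in both control libraries, with limma log2 ratios of -0.30 and -0.34, and neither passed (adjusted p = 0.205 and 0.204). Nr1i3 overlaps Tomm40l, a relative of a mitochondrial import pore gene, whose levels were 12.85, 11.57, 12.59 and 12.74 FPKM. As for Thra, reads of the shared bases (1203 here) cannot be assigned with certainty, so the level of Nr1i3 carries this limit. Ppard, the peroxisome proliferator-activated receptor delta, had 3.90 and 4.54 FPKM in the male libraries and 5.07 and 5.46 in the female libraries, so its levels followed sex more than treatment. Ppara, Pparg and Nr1h3 had rows in all 4 libraries, at 0.06 to 0.57 FPKM. Vdr and Nr1h4 were listed in the libraries of 1 sex, at 0.11 FPKM or less, and Nr1i2 was not analysed here.

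The heme-binding receptors of the circadian clock differed little. Nr1d1 had 21.36, 22.09, 22.13 and 21.78 FPKM. Its relative Nr1d2 had 6.64, 6.52, 5.54 and 5.83 FPKM. Both act as repressors of clock genes. Rorb, an orphan of the ROR group that also marks layer 4 neurons of the cortex, had 8.44, 9.83, 10.96 and 11.97 FPKM, higher in the female than in the male libraries of either treatment.

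Among the NR2 orphans, 6 of 8 were tested. Nr2c2 (testicular receptor 4) had 29.93, 28.67, 27.78 and 29.14 FPKM, and Nr2c1 (testicular receptor 2) 5.85, 5.08, 5.81 and 5.63. Nr2f1 (COUP-TFI), which patterns cortical areas, had 16.84, 17.94, 17.68 and 19.82 FPKM, and its relative Nr2f6 had 7.13, 7.5, 8.28 and 6.29. The treatments overlapped for Nr2c2 and Nr2f6, while in both BPA libraries Nr2c1 was lower and Nr2f1 higher than in both control libraries, with limma log2 ratios of -0.11 and 0.12 that did not pass (adjusted p = 0.683 and 0.490). Nr2f2 (COUP-TFII), known from interneurons and vessels, had 11.74, 8.65, 10.43 and 9.35 FPKM and was lower in both BPA libraries than in both control libraries, without passing limma (log2 ratio -0.28, adjusted p = 0.260). Nr2e1 (tailless), which keeps neural progenitors dividing, had 3.57 and 4.74 FPKM in males and 2.98 and 3.74 in females, higher with BPA within each sex (limma log2 ratio 0.32, adjusted p = 0.412). Hnf4a was listed in the male libraries alone, at 0.05 FPKM or less, and Nr2e3 was not analysed here.

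The NR4A orphans are immediate early genes that neuronal activity induces. Nr4a1 had 3.07, 2.89, 3.77 and 2.66 FPKM. Nr4a2, which is needed for dopamine neurons and labels deep cortical neurons, had 6.95, 8.94, 9.13 and 8.73, and Nr4a3 had 8.50, 7.64, 7.99 and 9.34. The treatments overlapped for Nr4a2 and Nr4a3, while both BPA libraries were lower for Nr4a1 (limma log2 ratio -0.25, adjusted p = 0.519). Of 6 other immediate early genes tested, 0 passed limma and 1 had an unadjusted p under 0.05 (17.3% of all tested genes), and their median log2 ratio was -0.20 in males and -0.47 in females. Of the NR5, NR6 and NR0 receptors, Nr5a2 and Nr0b1 stayed at or under 0.26 FPKM, Nr0b2 was listed in the female libraries alone at 0.11 FPKM or less, and Nr5a1 and Nr6a1 were not analysed here.

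**Figure D2:**
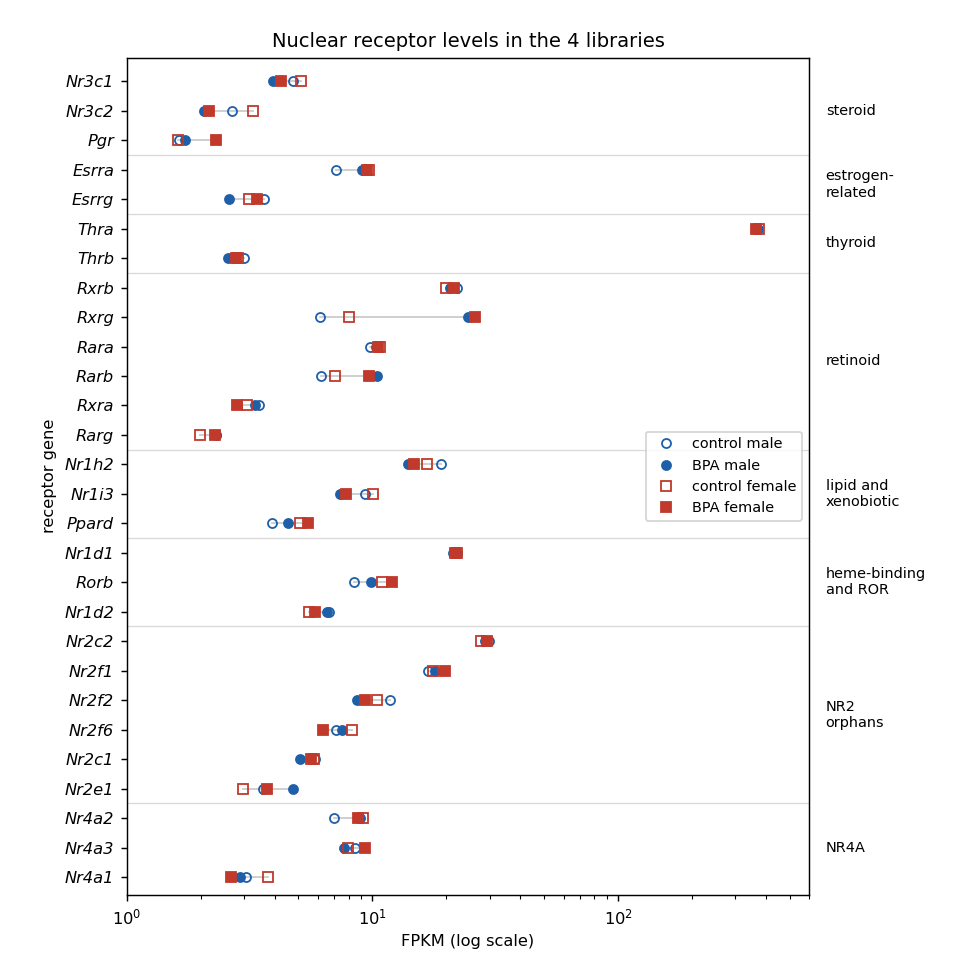
FPKM (log axis) of the 28 tested receptors in the 4 libraries, in groups by receptor type and sorted by mean level within a group, with a grey line from the lowest to the highest library. Thra lies at 363.61 to 373.32 FPKM, all others lie under 30, and Rxrg has the widest line.

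Counted over all 28 tested receptors, 2 were higher past the fold in males (Rxrg and Rarb) and 1 in females (Rxrg), and 0 were lower past it in either sex. With an added 0.1 in place of 0.5, Nr3c2 was lower past it in females (-0.57), and after a shift of the libraries to the same median Rarb was higher past it in females (0.52). Under these settings 2233 and 1744 of all tested genes were past it in females, against 1900 in the main setting. Of all tested genes, 3.60% were higher past the fold in males and 3.60% in females, and 7.82 and 10.8% were lower. The median absolute log2 ratio of the receptors was 0.19 in males and 0.14 in females, beside 0.16 and 0.17 over all tested genes. Between libraries of the same treatment, 0 receptors differed past the fold, beside 7.60% of all tested genes in the control and 8.33% in the BPA libraries, and the log2 ratios of female to male ranged from -0.24 to 0.41 in the control libraries and from -0.31 to 0.34 in the BPA libraries. The median absolute log2 ratio between the sexes was 0.17 in the control and 0.10 in the BPA libraries. The difference of Rxrg between treatments thus exceeded that of any receptor between the sexes.

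Counting error was exceeded more often, though about as often as among all genes. The exact interval of the ratio left out 0 on the log2 scale for 5 receptors higher in BPA male (Rxrg, Rarb, Nr4a2, Nr2e1 and Esrra) and 6 lower (Nr1h2, Nr2f2, Esrrg, Nr1i3, Nr3c2 and Nr3c1), where 14.1% of all tested genes were higher and 21.4% lower by this measure. In females it did so for 4 higher (Rxrg, Rarb, Pgr and Nr4a3) and 5 lower receptors (Nr3c2, Nr4a1, Nr2f6, Nr1i3 and Nr3c1), where 13.7% of all genes were higher and 22.6% lower. Between the control libraries of the 2 sexes it did so for 6 receptors and 22.0% of all genes. The receptors past counting error in the same direction in both sexes were Rxrg and Rarb, higher, and Nr3c1, Nr3c2 and Nr1i3, lower, where 5.71% of all tested genes were higher and 10.8% lower in both. In opposite directions in the sexes, 0 receptors and 2.54% of all genes were past it. In sign alone, 7 receptors were higher and 9 lower in both sexes, 57.1% of the 28 beside 66.0% of all tested genes. A shift of the libraries to the same median moved every gene alike and turned the sign of ratios near 0, 1 of 28 receptors in males (Nr1d2) and 7 in females (Esrra, Nr1d1, Nr2c1, Nr4a2, Rara, Thra and Thrb), all at an absolute log2 ratio of 0.06 or less, beside 7.32% of all tested genes in males and 14.1% in females. After it, 14 receptors were higher and 7 lower in both sexes, beside 4825 and 3832 of all tested genes, which had been 3414 and 5276 before.

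**Figure D3:**
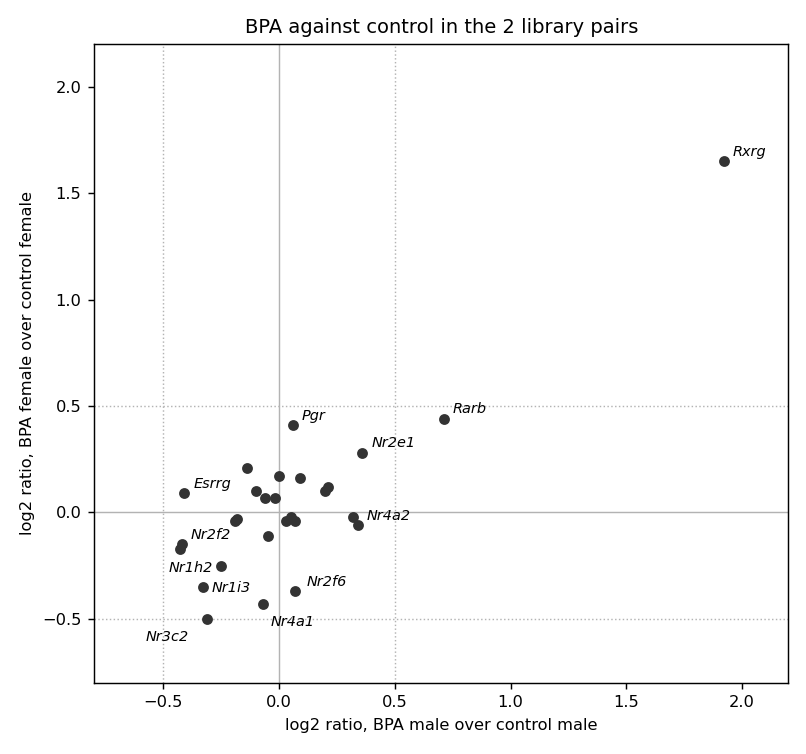
Log2 ratio of BPA to control in females (vertical axis) against males (horizontal axis) for the 28 tested receptors, 1 point per receptor, with dotted lines at the fold of 0.5 either way. Rxrg lies alone at 1.92 and 1.65, Rarb at 0.71 and 0.44, and the others gather around 0.

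The partners of the receptors were examined next. Of 7 coactivators tested, 0 passed limma and 2 had an unadjusted p under 0.05, beside 17.3% of all tested genes. These were Ppargc1a, a coactivator that drives mitochondrial genes with the estrogen-related receptors (4.77, 3.21, 5.45 and 3.69 FPKM, log2 ratio -0.51 in both sexes, adjusted p = 0.204), and Ncoa1, a coactivator of steroid receptors (limma log2 ratio 0.19, adjusted p = 0.282). Of 7 corepressors, 0 passed limma and 0 had an unadjusted p under 0.05. The same held for 5 steroid receptor chaperones, with 0 and 0. The median log2 ratios of these 3 lists lay between -0.07 and 0.04 in both sexes, beside -0.04 over all tested genes. These medians are over genes that differed either way. Among the corepressors, Ncor1 had a log2 ratio of -0.24 in males and 0.14 in females, and Nrip1 had 0.23 and -0.20. Both were past counting error in opposite directions in the sexes, as were 2.54% of all tested genes. A test with the sexes as replicates cannot show such a difference.

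Known target genes of the receptors were then examined. Of 8 targets of the retinoic acid receptors tested, Rarb itself included, 1 passed limma, in the lower direction, and 4 had an unadjusted p under 0.05, Rarb among them (17.3% of all tested genes). The median log2 ratio of the list was -0.21 in males and -0.68 in females. Tgm2, a transglutaminase, had 8.02 and 8.23 FPKM in the control libraries and 3.74 and 3.82 in the BPA libraries (limma log2 ratio -1.01, SE 0.123, adjusted p = 0.0430). Its call was lost by limma with sex as a second term (adjusted p = 0.0506) and without any 1 of the 4 libraries. Crabp2, which carries retinoic acid to its receptors, had 9.93 and 12.87 FPKM in the control libraries and 7.31 and 4.11 in the BPA libraries, and did not pass (adjusted p = 0.163 by limma). In sign alone, 2 genes of this list were higher with BPA in both sexes (Rarb and Dhrs3, a retinal reductase, with log2 ratios of 0.03 and 0.11) and 5 were lower in both, beside 25.9% and 40.1% of all tested genes. The meningeal markers, among them Aldh1a2, an enzyme that makes retinoic acid, were also lower in BPA libraries, all 13 of them past the fold in both sexes (7.82% of all tested genes in males and 10.8% in females), and 7 of the 13 passed limma (Igf2, Col1a1, Col1a2, Col3a1, Dcn, Ogn and Slc6a13). These 7 calls were lost by limma without any 1 of the 4 libraries. Igf2 and Ptgds had the largest limma log2 ratios of that list (-1.88, adjusted p = 0.0253, and -1.61, adjusted p = 0.0726). The part of this tissue in the levels of the target genes was not tested.

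Of 7 targets of the liver X receptors, 0 passed limma and 2 had an unadjusted p under 0.05, Apoe, the lipid carrier, and Scd, a fatty acid desaturase. Apoe had 218.08 and 261.94 FPKM in the control libraries and 139.90 and 102.38 in the BPA libraries (limma log2 ratio -0.99, adjusted p = 0.0692). Scd had 8.42 and 8.22 FPKM against 4.83 and 4.23 (-0.81, adjusted p = 0.0662). The list had a median log2 ratio of -0.19 in males and -0.43 in females. Markers of astrocytes and radial glia, which express Apoe, had medians of -0.22 and -0.59 (0 of 7 passed limma, 5 with an unadjusted p under 0.05), and their part was not tested either.

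Targets of the other receptors were examined likewise. Of 6 glucocorticoid receptor targets, 0 passed limma and 1 had an unadjusted p under 0.05, Sult1a1, a sulfotransferase, which had 5.10, 4.11, 8.72 and 1.52 FPKM (adjusted p = 0.227). Of 4 thyroid hormone receptor targets, 0 passed limma and 0 had an unadjusted p under 0.05. Of 6 targets of the peroxisome proliferator-activated receptors, 0 passed limma and 1 had an unadjusted p under 0.05, Acadm, an enzyme of fatty acid oxidation (6.80, 4.37, 7.08 and 4.52 FPKM, limma log2 ratio -0.59, adjusted p = 0.114). Of 5 clock genes controlled by Rev-erb and ROR, 0 passed limma and 1 had an unadjusted p under 0.05, Cry1, a repressor of the clock (7.13, 10.07, 6.68 and 10.38 FPKM, limma log2 ratio 0.53, adjusted p = 0.0948).

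The levels of Rxrg and Rarb were set beside the markers of striatal projection neurons, in which both receptors are known to be expressed. Of these 12 markers, 9 were higher with BPA in both sexes, beside 25.9% of all tested genes. Past the fold, 4 were higher in males and 5 in females, beside 3.60% of all tested genes in each sex, and the median log2 ratio was 0.40 in males and 0.47 in females. By limma 1 passed, Penk, the enkephalin precursor (13.92, 23.45, 14.45 and 21.51 FPKM, limma log2 ratio 0.64, adjusted p = 0.0460), and 7 had an unadjusted p under 0.05, beside 17.3% of all tested genes. The call of Penk was lost by limma with sex as a second term (adjusted p = 0.0506) and without any 1 of the 4 libraries. Ebf1, a transcription factor of striatal neurons, had 1.59, 3.99, 1.53 and 3.96 FPKM (limma log2 ratio 1.12, adjusted p = 0.0743), and Drd2, the dopamine receptor D2, had 4.25, 7.93, 3.96 and 7.51 (0.84, adjusted p = 0.0628). No marker of the list reached the ratio of Rxrg, and Rgs9, a signalling regulator of the adult striatum, had 2.26 to 2.33 FPKM in all libraries. The part of striatal tissue in the levels of Rxrg and Rarb was not tested.

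Among 9 markers of cortical projection neurons, of which Rorb is one, the median log2 ratio was 0.16 in males and 0.12 in females. By limma 1 rose, Neurod2, a transcription factor of excitatory neurons (limma log2 ratio 0.50, adjusted p = 0.0481), and 1 fell, Slc17a7, a vesicular glutamate transporter (-0.79, adjusted p = 0.0274). Both calls were lost by limma without any 1 of the 4 libraries, and that of Neurod2 also with an added 0.1 in place of 0.5 (adjusted p = 0.0527). All 3 tested markers of olfactory bulb projection neurons were lower with BPA in both sexes. Their median log2 ratio was -0.66 in males and -2.20 in females. By limma 2 of them had an unadjusted p under 0.05, beside 17.3% of all tested genes, and 1 fell, Cdhr1, a cadherin (adjusted p = 0.00834). Cdhr1 had 41.10 and 44.48 FPKM in the control libraries and 10.77 and 9.29 in the BPA libraries. Its call was lost by limma without either BPA library (limma log2 ratio -2.14 without BPA male and -1.94 without BPA female). Slc17a6 was lower past the fold in both sexes (-0.66 in males and -0.76 in females) and did not pass limma (adjusted p = 0.0509). Markers of endothelium (6 tested), of microglia and macrophages (8) and of the oligodendrocyte lineage (5) had 0 passing limma, with an unadjusted p under 0.05 for 4, 2 and 2 of them, beside 17.3% of all tested genes. With sex as a second term 1 endothelial marker, Slco1c1, passed limma (adjusted p = 0.0451). All 6 endothelial markers were lower with BPA in both sexes, with median log2 ratios of -0.38 in males and -0.65 in females. The 8 microglial and macrophage markers had medians of 0.03 and -0.66, lower for 4 in males and for 8 in females, and the 5 oligodendrocyte markers had medians of 0.20 and -0.12. The part of these cells in the levels of the receptors was not tested.

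**Figure D4:**
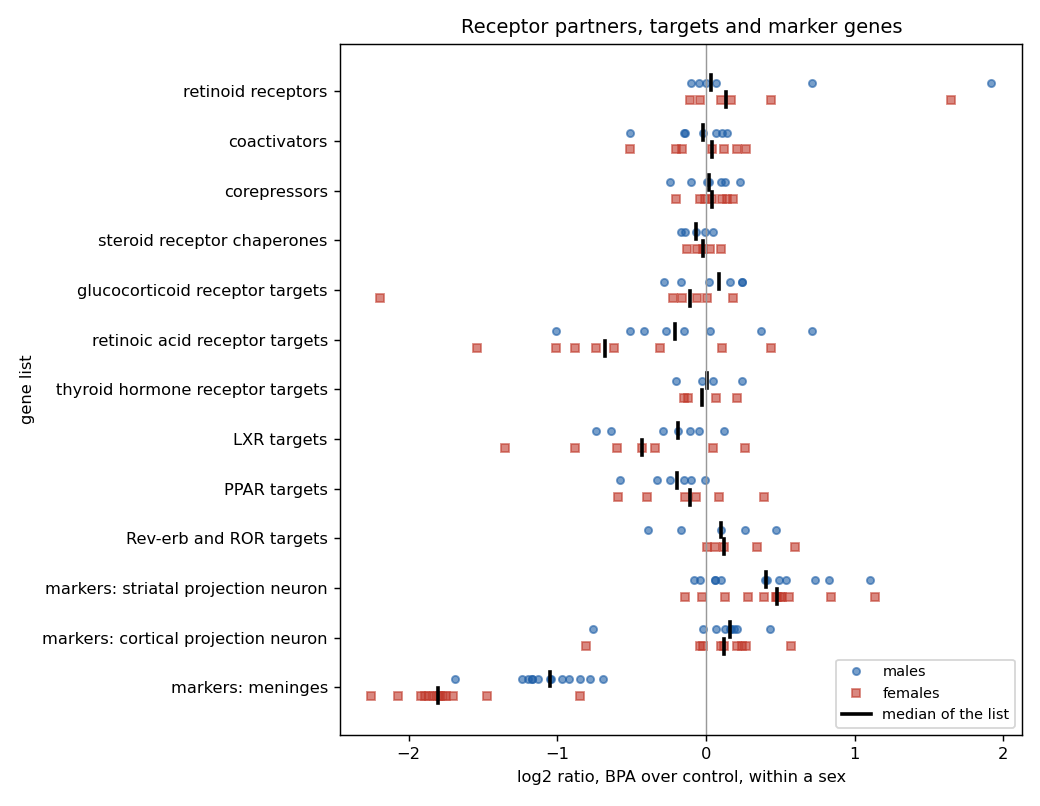
Log2 ratio of BPA to control (horizontal axis) for each tested gene of the lists, males as circles and females as squares, with a black line at the median of a list in a sex. Coactivators, corepressors and chaperones lie around 0, retinoic acid and liver X receptor targets lie to the left with meningeal markers farther left, and striatal markers and the outlying Rxrg lie to the right.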

How the data were processed

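Polyadenylated RNA of 4 samples was sequenced, and the authors mapped reads to Rnor_6.0 (rn6) with Bowtie 2 and calculated expression with RSEM, while their processing notes also list HISAT, all without versions. The deposited unit is FPKM, which the authors computed per transcript length and library depth, with 2 decimals and 0.01 in place of 0. Symbols came from the files. Depth was estimated from the steps of FPKM times effective length (length minus 60 bases), by which 84.8 to 86.4% of scarce rows came within 0.1 of whole fragments.

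Log2 ratios used FPKM + 0.5, and "past the fold" means an absolute value of at least 0.5. The treatments were compared by limma 3.58.1 (R 4.3.3) (trended prior variance, no term besides treatment) with 2 residual degrees of freedom and Benjamini-Hochberg adjustment over 13163 rows. On simulated data of that size, in which all genes shared the same fixed spread, limma called 100 of 100 genes changed by a log2 ratio of 1. It also called 7 unchanged ones. In the real data the spread differed between genes, and Ebf1 (limma log2 ratio 1.12) and Ptgds (-1.61) were not called. The simulated recovery therefore does not give the power of the test in these data. Python 3.11.15, numpy 2.4.6, pandas 2.3.3, scipy 1.17.1 and matplotlib 3.10.9 were used otherwise. The tests and main alternatives were set before these computations were run, but the receptors and all gene lists were chosen with earlier results of these data known. Values were given for all tested receptors, full statistics for those called, past the fold or opposite between the sexes beyond counting error, and of other lists the genes called and the 2 with the largest limma log2 ratios were named, with further genes named after their values were seen. Aldh1a2, Dhrs3, Rgs9, Slc17a6 and Slco1c1 were such genes.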

Additional observations from a re-analysis of the deposited data

How the results depend on the processing

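The limma count of 74 genes became 0 with no filter on low values (2628 with an unadjusted p under 0.05) and 477 on rows with a gene symbol alone, an alternative chosen after the data were seen, and was 0 to 6 with a library left out (0 without BPA male and without BPA female, with 1809 and 1899 unadjusted). The receptors called by limma numbered 0 with no filter, 2 on rows with a gene symbol, and 0 to 1 with a library left out. With sex as a second term 86 genes were called, and Rxrg passed by limma (adjusted p = 0.00987), while Tgm2 and Penk were lost (0.0506 each) and Lum (0.0454) and Slco1c1 (0.0451) were gained. Of the 12 genes of other lists that limma called, 12 were lost with no filter, 1 (Neurod2) with a pseudocount of 0.1, and 11 to 12 with a library left out, where Cdhr1 alone remained, without control male or without control female. No other paired analysis was possible because the labels give no replicate numbers. Genes past the fold in males were 2311 with no filter against 1504, and at a fold of 1 on the log2 scale 404 genes were past it in males and 539 in females, with 1 receptor in males. In females 2 receptors were past the fold with a pseudocount of 0.1 (Rxrg and Nr3c2, the latter lower), with equal library medians (Rxrg and Rarb) and with no filter on low values (Rxrg and Nr0b1, the latter lower). Over all genes, 2233, 1744 and 2804 were past it in females under these settings, against 1900 in the main one. The limma log2 ratio ranged from -0.03 to 0.23 for Hdac3 and from -0.23 to 0.10 for Mbp with a library left out, which reversed it without control female and without BPA male. Each symbol had 1 row, so taking each row on its own gave the values already printed. Levels under 1 FPKM rest on few fragments, and 1 library per sex and treatment leaves no test within a sex.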
